A study of Mus musculus with 4 samples.

Results

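Anln, Ect2, Racgap1, Prc1, Cit, Cep55, Tpx2, Aspm, Nusap1 and Troap encode proteins that build the mitotic spindle or split the cell after mitosis. They were taken by name from the deposited table of read counts, where all 10 were found among 23420 genes and all 10 passed the filter on low counts. The table comes from sorted pancreatic β-cells of mice, with 2 libraries labelled Bmal1KO and 2 labelled Bmal1 heterozygous (genotype Bmal1+/-). Both groups carried DTA, a toxin gene, and the β-cells measured were those left after ablation with 10 days of doxycycline. The heterozygous animals are the controls and lack 1 Bmal1 copy themselves. The sources used here do not give the age of the mice, the promoter behind DTA, the cells in which Bmal1 was deleted or how many animals went into a library. They also do not say if replicates were separate animals, so a p-value here measures library-to-library spread, part or all of which may be technical.

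A dividing cell first sets up a bipolar spindle of microtubules, and after the chromosomes part it forms a bundle of microtubules between them, the central spindle. The central spindle tells the cell cortex where to activate the GTPase RHOA, which drives a contractile ring of actin and myosin. The ring closes on a thin bridge, the midbody, and that bridge is cut in abscission. Adult β-cells divide rarely, and the loss of β-cells is known to raise their division. The RNAs of most of these factors accumulate in the G2 and M phases of the cell cycle and are scarce in resting cells.

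Levels are CPM, read counts scaled by the total count of their library. Totals were 31056116 to 38020488 counts, so a count of 3 equals 0.0789 to 0.0966 CPM. Fold changes are on the log2 scale, libraries labelled KO minus libraries labelled heterozygous, and were fitted with edgeR's quasi-likelihood test, with p-values adjusted by Benjamini-Hochberg over 14649 genes. Arntl, the gene of BMAL1, was at 75.9 and 67.7 CPM under the KO label and at 23.5 and 14.2 CPM under the heterozygous label, a rise of 1.89 on the log2 scale (SE 0.24, edgeR adjusted p = 0.0175) that goes against the label. Counts over the whole gene do not show whether a deleted part is missing, and every direction below is drawn between groups named by their labels. Ins2 made up 154543 to 194699 CPM, and all 8 β-cell markers listed were detected in every library. The libraries also stood apart in sex-linked RNA: Xist was at 8.68 CPM in KO replicate 1, 40.1 CPM in KO replicate 2 and 64.2 to 73.6 CPM in the libraries labelled heterozygous, and Ddx3y was at 89.2 CPM in KO replicate 1 and at 11.5 to 24.5 CPM in the other 3. Every library held both RNAs. Xist was lower, and Ddx3y higher, in both libraries labelled KO than in both labelled heterozygous. Sex mix and label therefore cannot be told apart here, and the part of sex in the members' values was not tested. In bulk RNA of this kind, fewer dividing cells and less RNA of a gene per dividing cell cannot be told apart.

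Many genes of the G2 and M phases carry the letters TTTGAA near their transcription start, the core of the cell cycle genes homology region. The stretches of the members that hold these letters are shown because most of the windows found hold them, a feature that was not used to choose the genes. RefSeq promoter windows (GRCm38.p6, 250 bases before to 50 after the start, the first window listed per gene) were found for 9 of the 10 genes, all but Tpx2. Each stretch runs 5′ to 3′ on the gene's own strand, with TTTGAA, or TTCAAA where the match lies on the opposite strand, in capitals.
Anln: ggggcgctgaaaTTCAAAtTTTGAAcggcc
Ect2: gagagagcgactggattttTTTGAAtcgga
Racgap1: ctggtgcgtgatTTTGAAccggatctggcg
Prc1: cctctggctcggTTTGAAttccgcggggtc
Cep55: acagccgcgggaTTCAAActcccggaagcg
Aspm: ggaggcgcgataTTTGAAccgagcaaaagc
The stretches lie at chr9:22389168-22389197 (minus strand) for Anln, chr3:27153829-27153858 (minus) for Ect2, chr15:99651634-99651663 (minus) for Racgap1, chr7:80294434-80294463 (plus) for Prc1, chr19:38054996-38055025 (plus) for Cep55 and chr1:139454767-139454796 (plus) for Aspm. Counted from the RefSeq start, the capitals begin 5 bases before it in Prc1. They begin at base 6 of the transcript in Racgap1, base 7 in Aspm, base 22 in Anln, base 25 in Cep55 and base 40 in Ect2. The gene positions given further below are from GENCODE and do not always begin at the RefSeq start. In GENCODE, Cep55 begins at 38055011, past the first of its capitals. Ect2 holds another match 114 bases before its start. TTTGAA on either strand was found in 6 of the 9 windows, against 18.1% of all 27025 windows of the same length and 11.6% of the windows of tested genes. In the last 100 bases of the window it was again found in 6 of 9, against 4.92% of all windows. The windows of Cit, Nusap1 and Troap did not hold these letters. In GENCODE, Cit and Troap begin before their windows, and the bases around those other starts were not searched.

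CCAAT, the letters of the box bound by NF-Y, was found on either strand in 5 of the 9 windows, those of Ect2, Racgap1, Prc1, Aspm and Troap, against 37.9% of all windows. In the last 100 bases the count was again 5 of 9, against 13.9% of all windows. The match nearest to the start is shown for Troap, whose window lacks TTTGAA, and for Prc1, whose window holds both.
Troap: accgggtaccagCCAATcaggagcttggcg
Prc1: cggacgcggtaaCCAATtgtcatttggcac
These lie at chr15:99074949-99074978 and chr7:80294402-80294431, both on the plus strand, and the capitals begin 12 bases before the start in Troap and 37 bases before it in Prc1. CACGTG, the E-box letters that BMAL1 and CLOCK are known to bind, was found in 1 of the 9 windows, that of Anln, against 7.24% of all windows. A match describes these letters only and does not show binding. Among the 10 genes Troap, with no TTTGAA in its window, had the log2 fold change farthest from 0, and Racgap1, with TTTGAA at base 6, the one nearest to 0.

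The 10 genes were lower in the libraries labelled KO. For each of them the higher KO value was below the lower heterozygous value, an order that 20% of all tested genes show. By edgeR's test, 7 of 10 fell (Anln, Ect2, Prc1, Cit, Cep55, Tpx2 and Troap), 0 rose and 3 did not pass (Racgap1, Nusap1 and Aspm). Over all genes tested, 1.34% were called lower and 1.2% higher. The median log2 fold change of the 10 genes was -2.28, and that of all tested genes was 0.024. These genes were chosen with earlier results of these data known, so the count describes them and is no independent evidence. The calls depended on heterozygous replicate 2: without it 0 of 10 passed in edgeR's test, while 8 had an unadjusted p under 0.05, the median was -2.22 and 0.0518% of all genes were called lower. Without heterozygous replicate 1, 5 passed, with a median of -2.35 and 0.612% of all genes called lower.

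**Figure D1:**
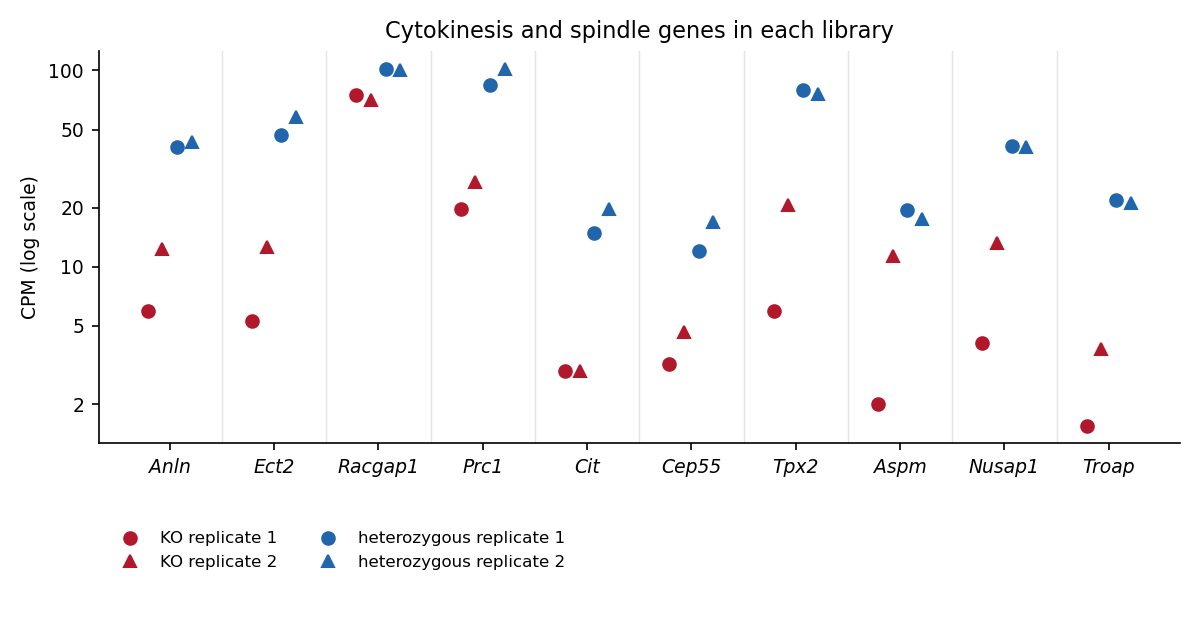
CPM on a log axis of each of the 10 genes in each of the 4 libraries (red, libraries labelled KO; blue, libraries labelled heterozygous; circles, replicate 1; triangles, replicate 2). Every red point lies below both blue points of its gene, closely so for Racgap1, with 75.3 and 70.4 CPM against 101.6 and 100.8 CPM.

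Among the factors of the central spindle and the cortex, Prc1 had the smallest adjusted p. PRC1 crosslinks antiparallel microtubules into the central spindle. Its RNA was at 19.6 and 27.0 CPM under the KO label and at 84.3 and 102 CPM under the heterozygous label. Prc1 fell by 2.05 on the log2 scale (SE 0.22, 95% interval -2.57 to -1.54, edgeR adjusted p = 0.0129). The groups stood well apart, and KO replicate 2 was the higher of its pair. Of the merged exon length of Prc1 (chromosome 7, 80294450 to 80316259, GRCm38), 11.1% overlaps Rccd1 on the other strand. Part of the reads counted for Prc1 could come from Rccd1, and how large that part is was not tested.

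Ect2 (chromosome 3, 27097222 to 27153878), which encodes the exchange factor that activates RHOA at the cortex, was at 5.27 and 12.7 CPM against 47.0 and 58.1 CPM. It fell by 2.61 (SE 0.39, 95% interval -3.54 to -1.68, edgeR adjusted p = 0.0232). Both libraries labelled KO were low, and KO replicate 2 was 2.40 times KO replicate 1 (95% counting interval 2.003 to 2.888).

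Racgap1 had the smallest difference of the 10 genes. RACGAP1 forms the centralspindlin complex with the kinesin KIF23 and brings ECT2 to the central spindle. Racgap1 (chromosome 15, 99620496 to 99651656) was at 75.3 and 70.4 CPM under the KO label and at 101.6 and 100.8 CPM under the heterozygous label. The groups did not overlap, and the log2 difference of -0.52 (SE 0.15, 95% interval -0.86 to -0.18) did not pass (edgeR adjusted p = 0.132). By DESeq2 it did (adjusted p = 0.0309), and over all alternatives the adjusted p ranged from 0.0309 to 0.606. The 95% intervals of 8 of the other 9 genes lay wholly below that of Racgap1, and the difference between genes was not tested. Kif23, its partner in centralspindlin, fell by 2.72 (edgeR adjusted p = 0.0193), with 2.80 and 6.12 CPM against 28.0 and 28.6 CPM. Racgap1 made up 59.8% and 39.3% of the summed CPM of the 10 genes under the KO label, against 21.98% and 20.3% under the heterozygous label.

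Anln and Cit act in the ring and the midbody. Anillin, the product of Anln (chromosome 9, 22332012 to 22389188), ties RHOA, actin, myosin and septins together. Its RNA was at 5.94 and 12.3 CPM against 40.6 and 43.1 CPM, and it fell by 2.26 (SE 0.34, 95% interval -3.05 to -1.47, edgeR adjusted p = 0.0230). Cit (chromosome 5, 115845278 to 116008947), which encodes citron kinase, a protein of the ring and midbody, was at 2.96 CPM in both libraries labelled KO and at 14.9 and 19.8 CPM under the heterozygous label. It fell by 2.60 (SE 0.33, 95% interval -3.37 to -1.83, edgeR adjusted p = 0.0163). Cit has the most annotated transcripts of the 10 genes, 19, and is known to make a shorter form without the kinase domain in neurons. Counts per gene do not separate these forms.

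Cep55 (chromosome 19, 38055011 to 38074423) encodes the midbody protein that recruits the abscission machinery. It was at 3.20 and 4.67 CPM against 12.1 and 16.9 CPM, with no overlap between groups, and fell by 1.94 (SE 0.36, 95% interval -2.79 to -1.08, edgeR adjusted p = 0.0453). This call lies close to the threshold: it was lost by limma-voom (adjusted p = 0.0589), without KO replicate 1 (0.0521), without heterozygous replicate 1 (0.0633) and without heterozygous replicate 2 (0.300).

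Of the 4 spindle factors, Tpx2 and Troap fell. TPX2 activates Aurora A and seeds spindle microtubules. Tpx2 (chromosome 2, 152847964 to 152895321) was at 5.94 and 20.7 CPM against 79.4 and 76.0 CPM. It fell by 2.60 (SE 0.49, 95% interval -3.77 to -1.44, edgeR adjusted p = 0.0470). The call was lost without heterozygous replicate 1 (adjusted p = 0.0540) or 2 (0.114). Troap (chromosome 15, 99074575 to 99083409), also called tastin, encodes a protein that binds microtubules at the spindle. It was at 1.55 and 3.80 CPM against 21.8 and 21.02 CPM and fell by 3.05 (SE 0.43, 95% interval -4.08 to -2.03, edgeR adjusted p = 0.0204). Its counts of 51 and 118 in the libraries labelled KO, against 828 and 731, included the lowest among the 10 genes. Of its merged exon length, 2.7% overlaps an annotated antisense gene.

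Nusap1 and Aspm did not pass. NUSAP1 stabilises microtubules near the chromosomes. Nusap1 (chromosome 2, 119618298 to 119651244) was at 4.11 and 13.2 CPM against 41.2 and 40.7 CPM, a log2 difference of -2.30 (SE 0.47, 95% interval -3.41 to -1.18, edgeR adjusted p = 0.0598). By limma-voom (adjusted p = 0.0257), DESeq2 (2.09e-05) and limma-trend on the deposited normalized values (0.0305) it was past the threshold. Over all alternatives its adjusted p ranged from 2.09e-05 to 0.160. Oip5, on the other strand, overlaps 4.24% of its merged exon length.

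ASPM holds spindle poles together, and its human gene is known for microcephaly. Aspm (chromosome 1, 139454772 to 139494091) was at 2.01 CPM in KO replicate 1, 11.4 CPM in KO replicate 2 and 19.4 and 17.5 CPM under the heterozygous label. KO replicate 2 lay nearer to the heterozygous level than to KO replicate 1 on the linear scale. The log2 difference of -1.52 (SE 0.67, 95% interval -3.09 to 0.048) had an edgeR adjusted p of 0.311. Without KO replicate 2 the difference was -3.22 (adjusted p = 0.00436), and without KO replicate 1 it was -0.79 (adjusted p = 0.160).

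**Figure D2:**
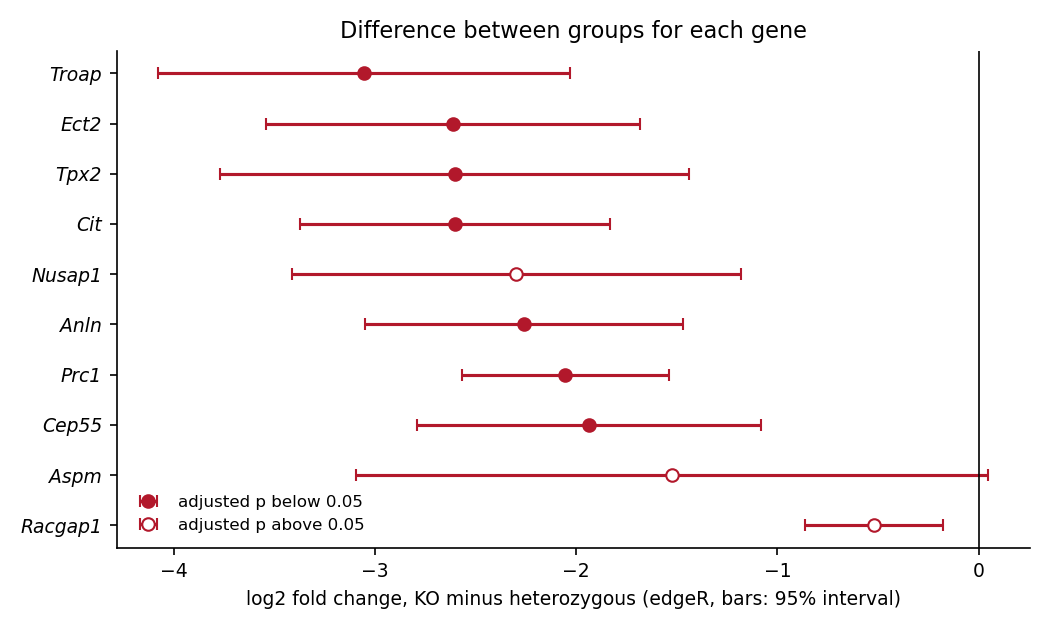
Log2 fold change from edgeR with its 95% interval for each of the 10 genes, ordered by size (filled, adjusted p below 0.05; open, above). Troap lies farthest from 0 at -3.05, Racgap1 nearest at -0.52, and the interval of Aspm alone reaches past 0.

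Most of the spread between replicates lay within the KO label. The ratio of KO replicate 2 to KO replicate 1 had a median of 2.23 over the 10 genes, and in 8 of 10 its 95% counting interval (exact binomial, from the counts of both libraries) lay above 1. It was 5.67 for Aspm, 3.48 for Tpx2, 3.22 for Nusap1, 2.45 for Troap, 2.40 for Ect2 and 2.07 for Anln. Cit, at 1.002, did not differ beyond counting error (0.745 to 1.35), and Racgap1, at 0.935, was slightly lower in KO replicate 2 (0.882 to 0.991). The spindle factors Aspm, Tpx2, Nusap1 and Troap had the 4 highest ratios, ahead of all 6 cytokinesis factors, an order that was seen in the data and not tested. The counting intervals of Troap (1.746 to 3.466) and Ect2 (2.003 to 2.888) overlapped, so the order of these 2 is not settled.

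Within the heterozygous label the same ratio had a median of 1.03, and 6 of 10 intervals spanned 1. It was above 1 beyond counting error for Cep55 (1.40), Cit (1.33), Ect2 (1.24) and Prc1 (1.21). Reads carry no molecular identifiers, so these intervals cover counting error only. Immune markers were also higher in KO replicate 2, at a summed 589 CPM against 154 CPM in KO replicate 1 and 140 to 146 CPM under the heterozygous label. Of 10 listed immune markers 9 were tested, and 0 passed by edgeR, 2 at an unadjusted p under 0.05, 1 by DESeq2 and 0 by either limma test. Stromal markers were at a summed 373 and 132 CPM in KO replicates 2 and 1 and at 16.5 to 58.9 CPM under the heterozygous label, with 6 of 9 tested, 3 higher (0 by limma-voom) and Thy1 at 0 in 3 libraries. Col1a1, Col1a2 and Col3a1 made up most of these stromal sums. Acta2 (0.0322 against 3.08 CPM), Pdgfrb (0.0644 against 0.975 CPM) and Thy1 were lower in KO replicate 2 than in KO replicate 1. Dcn overlapped between the groups. Acinar markers were at 74.5 to 159 CPM against 22.4 to 58.1 CPM (8 of 10 tested, 0 passed by edgeR, 3 at an unadjusted p under 0.05, 1 by DESeq2, Amy2a2 at 0 in all libraries), and endothelial markers at 5.54 to 19.1 CPM against 2.32 to 2.62 CPM (4 of 7 tested, 0 passed by edgeR, 2 at an unadjusted p under 0.05, 2 by DESeq2, Cdh5 at 0 in 2 libraries). Markers of other endocrine cells were at a summed 10240 CPM in KO replicate 2, against 5409 CPM in KO replicate 1 and 5040 and 5118 CPM under the heterozygous label. Gcg, the glucagon gene, was at 3406 CPM in KO replicate 2 and at 1219 to 1631 CPM in the other 3 libraries, and Ppy, the pancreatic polypeptide gene, at 4133 CPM and at 994 to 1975 CPM. This list was mixed: of 8 listed endocrine markers 7 were tested, 4 with a higher and 3 with a lower level under the KO label. By edgeR 1 was called higher (Irx2), with 3 at an unadjusted p under 0.05, and by DESeq2 3 were called higher. Ttr (1232 and 1217 CPM) and Irx2 (21.9 and 13.1 CPM) were lower in KO replicate 2 than in KO replicate 1. Over all 14649 genes tested, 2471 had an unadjusted p under 0.05. The part of these marker lists in the members' values was not tested.

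**Figure D3:**
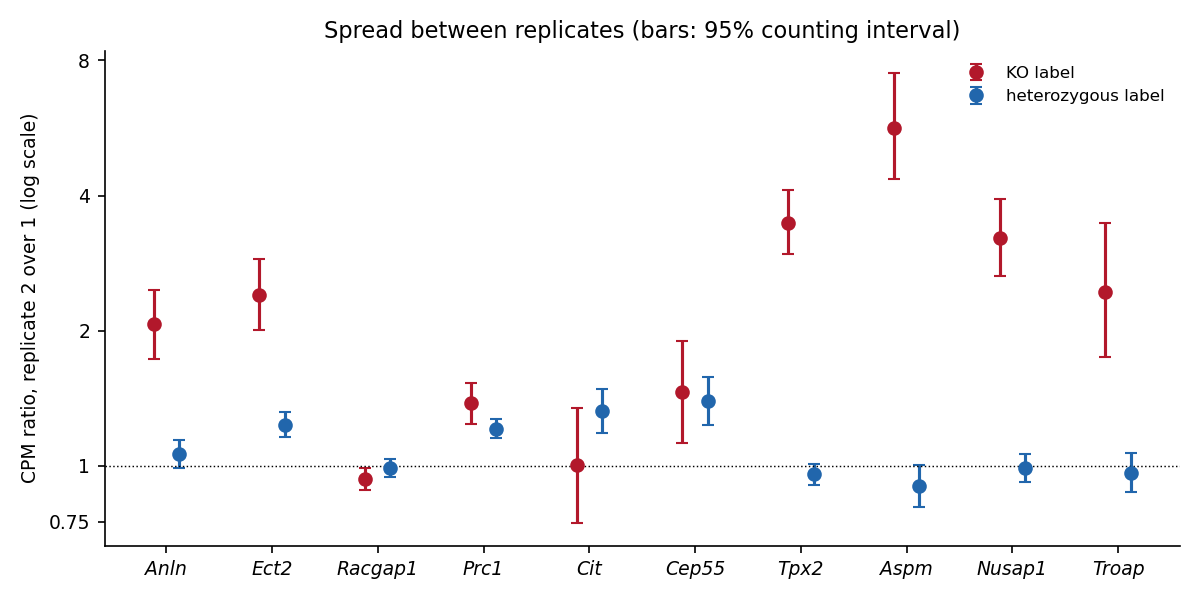
Ratio of replicate 2 to replicate 1 in CPM on a log axis for each of the 10 genes within each label (red, KO; blue, heterozygous), with 95% counting intervals. The red points spread from 0.935 for Racgap1 to 5.67 for Aspm, while the blue points stay between 0.901 and 1.40.

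Levels were compared between genes per kilobase of merged exon (GENCODE M21), since long genes collect more reads. In the libraries labelled heterozygous the mean CPM per kilobase was highest for Tpx2 (16.6), followed by Racgap1 (14.3), Prc1 (11.3), Nusap1 (10.1), Ect2 (9.76), Troap (6.08), Cep55 (4.98), Anln (4.62), Aspm (1.59) and Cit (1.06). The 2 libraries of Ect2 (8.73 and 10.8) overlapped in range with those of Prc1 (10.25 and 12.4) and Nusap1 (10.1 and 10.03), and Cep55 (4.16 and 5.80) with Anln (4.48 and 4.76). The other neighbours in this order did not overlap. In the libraries labelled KO, Racgap1 was highest at 10.3 CPM per kilobase. Tpx2 (1.27 and 4.42), Prc1 (2.39 and 3.29), Nusap1 (1.01 and 3.26) and Ect2 (0.979 and 2.35) followed with ranges that overlapped for all but Prc1 and Ect2. By group mean Cit was lowest under both labels, at 0.180 CPM per kilobase under the KO label. Aspm (0.1735 and 0.9835) overlapped Cit there and was the lower of the pair in KO replicate 1.

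The members were then set against 16 general cycling genes, among them Mki67, Top2a, cyclins and MCM genes. Mki67, the marker of cycling cells, was at 20.2 and 32.7 CPM under the KO label and at 100.3 and 148 CPM under the heterozygous label. All 16 cycling genes had a lower level under the KO label. Of these 9 fell, against 1.34% of all tested genes called lower, and the median log2 fold change was -1.65. The summed CPM of the 10 members was 125.9 and 179 under the KO label and 462 and 496 under the heterozygous label. As a share of the summed cycling genes these were 60.6%, 64.6%, 64.0% and 61.5%, in the order KO replicates 1 and 2 and heterozygous replicates 1 and 2. That share was much the same in all 4 libraries with Racgap1 counted. Without Racgap1, the other 9 members made up 24.4% and 39.2% of the cycling sum under the KO label and 49.9% and 49.0% under the heterozygous label. The cycling genes did not fall alike. Mki67, Top2a, Ccna2, Ccnb1, Ccnb2, Cdk1 and Bub1 had log2 fold changes of -2.64 to -2.29, near the members' median of -2.28. Pcna, Rrm2, Tyms and the listed MCM genes had -1.79 to -0.39. These shares therefore depend on which cycling genes are summed, and shares of either set alone were not computed.

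The partners of these factors that are made in dividing cells were lower too, while by edgeR's test 0 of the general ring, abscission and spindle core genes passed (DESeq2 called 8 of the spindle core list lower). Of 14 cytokinesis partners (kinesins, the chromosomal passenger complex, Plk1 and others), all had a lower level, 9 fell and 5 did not pass, with a median log2 fold change of -2.35. Of all 14649 genes tested, 6979 had a lower level and 1.34% were called lower by edgeR. By edgeR, Aurkb, the kinase of the passenger complex, had a log2 fold change of -3.38 (adjusted p = 0.0175), Shcbp1, which binds centralspindlin, one of -2.48 (0.0175) and Cdca8, a passenger complex subunit, one of -2.25 (0.0221). Kif14, a kinesin that binds PRC1 and citron kinase, had 0 and 1 counts under the KO label and 138 and 101 under the heterozygous label. In CPM over each group the heterozygous level was 210 times the KO level (95% counting interval 37.3 to 8317). This interval pools the reads of each label and covers counting error only, not the spread between libraries. Kif14 is among the 9 partners that fell, and it passed the filter on low counts through the heterozygous libraries alone. Of 21 mitotic spindle partners, all had a lower level, 12 fell and 9 did not pass, with a median of -1.96. Aurka, the kinase that TPX2 activates, fell by 2.38 (edgeR adjusted p = 0.0129), with 6.64 and 9.34 CPM against 39.1 and 41.3 CPM. Kif11, the motor that pushes spindle poles apart, had a log2 fold change of -2.62 (edgeR adjusted p = 0.0142), and the kinesin genes Kif18b and Kif2c had -2.26 (0.0145) and -1.90 (0.0216). Hmmr, whose product binds spindle microtubules, had -2.25 (0.0265). Without heterozygous replicate 2, the partners of either list lost their calls, while the medians were -2.16 and -1.92. Without heterozygous replicate 1, 5 and 6 passed.

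Among 25 measured genes of the contractile ring and abscission machinery, 0 passed in edgeR's test, 0 had an unadjusted p under 0.05, and 0 passed by DESeq2, limma-voom or limma-trend. Their median log2 fold change was -0.098, with a range of -0.47 to 0.37. Rhoa, which the ring depends on, was at 82.2 and 91.3 CPM against 80.6 and 85.5 CPM (0.013, 95% interval -0.34 to 0.37). Pdcd6ip and Tsg101, which encode the partners that CEP55 recruits to the midbody, had log2 differences of -0.24 (95% interval -0.56 to 0.071) and -0.16 (-0.54 to 0.22). Myh9, the myosin heavy chain, had the smallest p of the list (-0.35, edgeR adjusted p = 0.312). Of 29 listed genes 4 septins were not matched in the table and are not analysed here.

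Of 32 genes of microtubule nucleation and the spindle core, 27 had a lower level, as had 6979 of all 14649 genes tested, and 0 passed in edgeR's test. An unadjusted p under 0.05 was seen in 14 of the 32, and in 2471 of all 14649 genes tested. DESeq2 called 8 of the 32 lower (560 of all genes tested), limma-trend 1 and limma-voom 0. The median was -0.24. Stmn1, which encodes the microtubule destabiliser stathmin, had 0.640 and 1.64 CPM against 5.52 and 7.94 CPM (-2.62, edgeR adjusted p = 0.0746), and Haus5, an augmin subunit gene, had a difference of -0.90 (adjusted p = 0.0791).

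**Figure D4:**
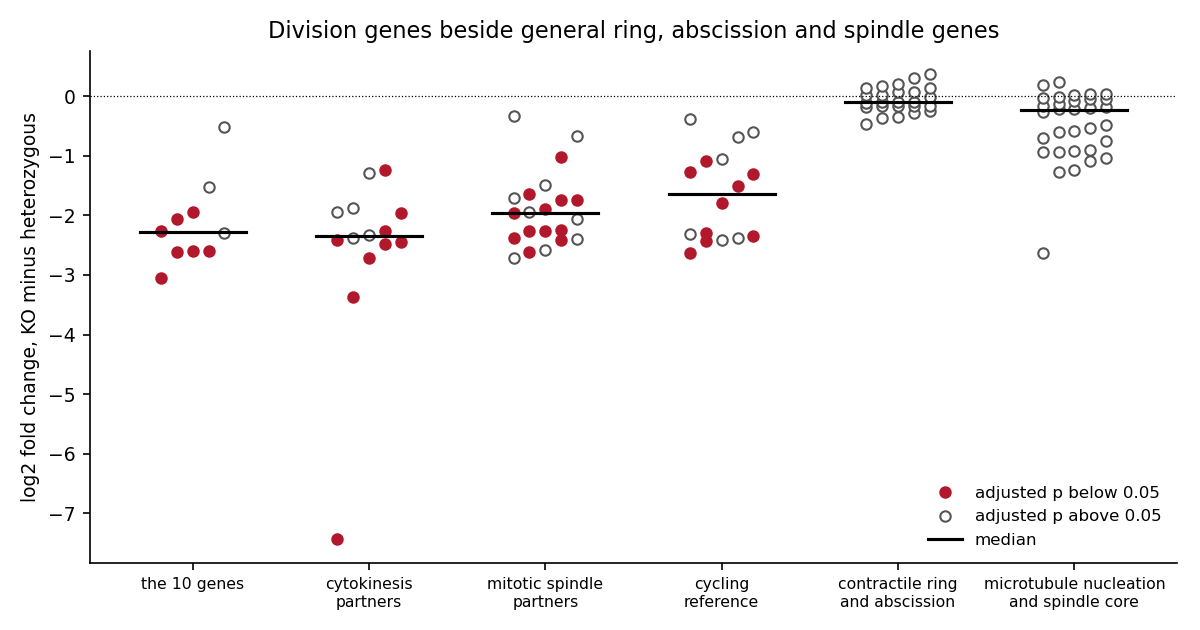
Log2 fold change of each tested gene in the 10 members and 5 other gene lists (filled, edgeR adjusted p below 0.05; open, above; bars, medians). The members, the cytokinesis and spindle partners and the cycling genes have medians between -2.35 and -1.65, and the ring and abscission list and the spindle core list have medians of -0.098 and -0.24; the lowest point, at -7.44, is Kif14, with 1 count in all under the KO label, so that its fitted value depends on the prior count.

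By their profile over the 4 libraries, the genes nearest to the mean profile of the members were Oxtr, Cdca8, Ccnb1, Ncapg and Ucn3, out of 10671 genes with a mean of at least 5 CPM. Nearness was the Euclidean distance between centred log2(CPM + 0.5) values, and it was 0.0733 for Oxtr, 0.116 for Cdca8, 0.130 for Ccnb1, 0.141 for Ncapg and 0.152 for Ucn3. Of the members themselves Anln was nearest to their mean, at 0.110, and Racgap1 farthest, at 1.81. Cdca8, Ccnb1 (cyclin B1) and Ncapg (a condensin subunit) are genes of mitosis. Oxtr, the oxytocin receptor gene, was at 9.35 and 19.8 CPM against 58.2 and 61.3 CPM, and Ucn3, which encodes urocortin-3, a peptide that mature β-cells secrete, at 53.0 and 91.9 CPM against 275 and 298 CPM. With 4 libraries in 2 groups, many genes share such a profile, and nearness describes these libraries only.

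Leaving out 1 library at a time moved the members' adjusted p. It could not turn their direction in CPM, since for each gene both KO values lay below both heterozygous values. The other alternatives refit the same counts, and in all of these runs the 10 genes kept a lower level under the KO label. Prc1, Cit, Anln, Ect2 and Troap passed with any 1 library left out other than heterozygous replicate 2, without which their adjusted p values were 0.0557, 0.104, 0.0925, 0.0911 and 0.0855. Without KO replicate 2, 9 of 10 genes passed, all but Racgap1, against 2.77% of all genes. Without KO replicate 1, 7 of 10 passed, with Nusap1 in place of Cep55, against 1.75%.

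**Figure D5:**
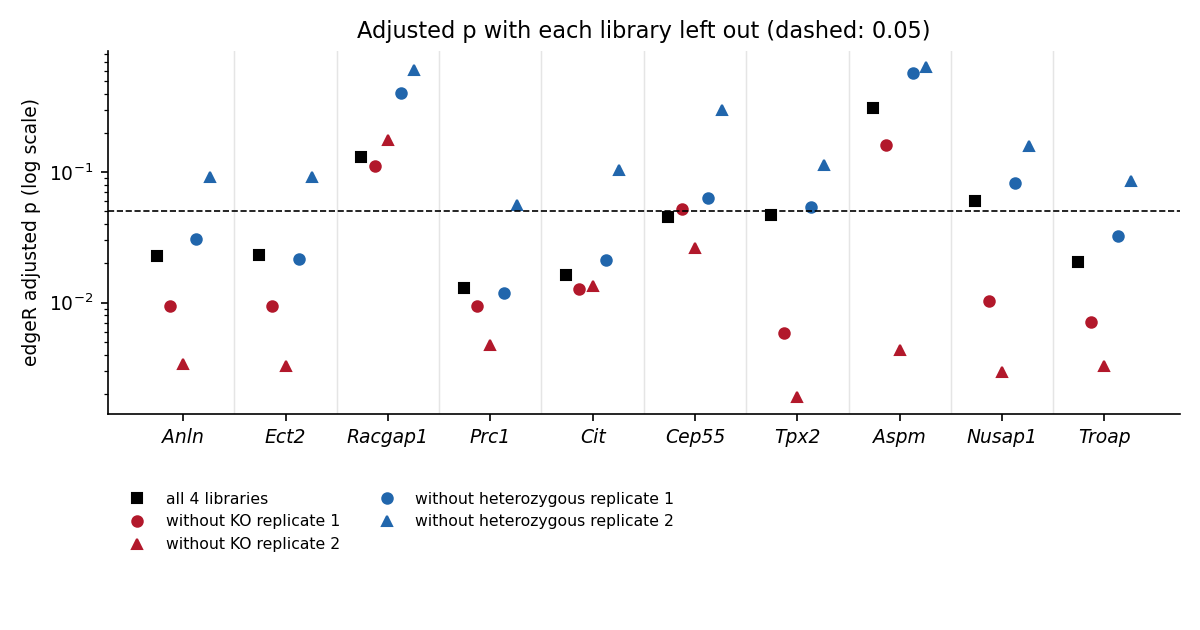
EdgeR adjusted p on a log axis for each of the 10 genes with all 4 libraries (black) and with each library left out in turn (red, a library labelled KO; blue, one labelled heterozygous); the dashed line marks 0.05. With heterozygous replicate 2 left out every gene lies above the line, from 0.0557 for Prc1 to 0.637 for Aspm.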

How the data were processed

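RNA of sorted β-cells was sequenced in 4 libraries, amplified from low input with SMART-Seq v4, per the labels' protocols. Per the submitters' processing notes STAR, edgeR and mm10 were used. Tool versions, the counting step, its strand setting and the gene annotation were not given in the sources used here. As deposited, the first table holds whole-number read counts for gene symbols, not normalized, and the tests ran on these. A second table by the authors holds normalized values, handled as a signal, for 14649 genes: divided by 1 constant per library, 100% of them came out as whole reads within 0.01, and 99.99% equalled the deposited count.

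In edgeR 4.0.16 (R 4.3.3), filterByExpr removed low genes (count 10, total 15), TMM gave the scaling, and the quasi-likelihood test was run (glmQLFit, glmQLFTest, group as the only term, 2-sided, Benjamini-Hochberg, threshold 0.05), with 2 residual and 5.12 prior degrees of freedom. CPM values are counts over library totals, without TMM. The procedure was tested on 3 simulated data sets, where it recovered 33.8% of 2-fold and 70% of 4-fold changes. A gene that did not pass is therefore not shown to be unchanged.

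The 10 genes, the lists and the naming rule were chosen with earlier results of these data known. The rule names the members, up to 5 called genes per list by smallest p or else 2, the 5 nearest profiles, and Arntl, Mki67, Ins1 and Ins2; a few others named were chosen after their values were seen. The listed cell type markers cover β, other endocrine, acinar, duct, stromal, endothelial, immune and erythroid cells; of these lists, Ucn3 fell, Irx2 and 3 stromal genes rose, and the duct list had 0 calls by edgeR (4 at an unadjusted p under 0.05, 1 lower and 2 higher by DESeq2, 1 lower by limma-voom). Of 6 duct markers tested, 5 had a higher level under the KO label (median log2 fold change 0.87), while their sum, mostly Krt7, was 569 and 570.2 CPM against 725 and 763 CPM. No erythroid marker passed the filter. Of the 8 β-cell markers, 6 had a lower and 2 a higher level under the KO label. By edgeR 1 was called lower (Ucn3), with 3 at an unadjusted p under 0.05, and by DESeq2 2 were called lower. Ins1 (log2 fold change -0.38) and Ins2 (0.10) did not pass by edgeR. Alternatives were other scalings, filters, DESeq2 1.42.0, limma 3.58.1 (voom, trend with a pseudocount of 1), a replicate block and each library left out.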

Additional observations from a re-analysis of the deposited data

How the results depend on the processing

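All 10 genes kept a lower level under the KO label in 13 alternatives. Leaving out 1 library could not turn that direction in CPM, since the groups did not overlap for any member. In 1 alternative added after seeing the data, edgeR was run on reads recovered from the deposited normalized values. Those reads equalled the deposited count for 99.99% of genes, so that run repeats the main test (372 genes and 7 members called) and is no check of it. Its 10 values are among the 118 kept values below. Of 140 values for single members, 118 kept their side of the threshold, 11 lost it and 11 gained it. The number of members called lower was 7 to 9 under the other scalings, filters and tests, and 0 to 9 with 1 library left out, the 0 being without heterozygous replicate 2. The number of members called higher was 0 in each alternative. The cytokinesis partners called lower, 9 by edgeR, were 14 by DESeq2 and 0 to 13 with 1 library left out. The mitotic spindle partners, 12 by edgeR, were 0 to 18 with 1 library left out. The spindle core list, 0 by edgeR, had 3 genes with no filter, 8 by DESeq2, 1 by limma-trend, 2 with a replicate block and 0 to 3 with 1 library left out. The ring and abscission list had 0 in each. Over all genes, 372 calls became 808 with no filter, 1179 by DESeq2, 591 with a replicate block and 25 to 826 with 1 library left out. The cause of these shifts was not tested. With 1 library left out, its group has a single library, which is assumed to vary like the other group.

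The labels number replicates 1 and 2 in both groups and do not say that a number marks a shared litter or day. Deviations of same-numbered libraries from their group means had a correlation of -0.0145 across genes. With 2 libraries per group the deviations within a label mirror each other, so both pairs give this same value. A replicate block gave 8 members lower, the added one being Nusap1 (adjusted p = 0.00686), and left Racgap1 (0.168) and Aspm (0.115) above the threshold. With 2 libraries per group, spread within a label sets the precision more than counting does: the lowest count among the members was 51.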

Other observations

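The 8 subunits of augmin, the complex that branches new microtubules off existing spindle microtubules, were singled out after their values were seen. Of these, 6 had a lower level under the KO label and 5 had an unadjusted p under 0.05, and 0 passed after adjustment in edgeR's test, 4 by DESeq2 and 0 by either limma test. Haus6 was at 3.47 and 4.51 CPM against 9.60 and 8.97 CPM (log2 difference -1.27, edgeR adjusted p = 0.123), and Haus4 at 7.68 and 4.51 CPM against 12.7 and 15.4 CPM (-1.25, adjusted p = 0.149). Haus7, at 33.6 and 29.8 CPM against 30.1 and 22.5 CPM (0.23), and Haus2, at 12.6 and 14.9 CPM against 12.8 and 13.6 CPM (0.014), differed from the other subunits in sign, and the difference was not tested. Over all 14649 genes, 6979 had a lower level under the KO label and 2471 had an unadjusted p under 0.05.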
